A study of Mus musculus with 4 samples.

Results

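Inorganic ion and metal solute carriers are membrane proteins that move chloride, bicarbonate, sulfate, sodium, protons, phosphate, calcium, magnesium, zinc, iron and copper. In the gene table of this series, 60 of 14979 genes carry a symbol that begins with the name of 1 of 14 carrier groups, from Slc4a, Slc8 and Slc9 to Slc40a and Slc41a. Of the 60, 56 are carriers. The other 4 are Slc4a1ap (an adaptor protein), Slc9a3r1 and Slc9a3r2 (scaffolds that hold carriers at the membrane) and the pseudogene Slc39a1-ps. The groups differ in size, from 13 Slc39 genes and 10 Slc9 genes to 1 gene each for Slc34 and Slc40, and no Slc24 gene was analysed here.

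The RNA came from colon tumours of mice given azoxymethane, a carcinogen, and dextran sulfate sodium, which inflames the colon (AOM/DSS). Both groups carry this treatment. The MAdCAM1 group was treated with an antibody to MAdCAM-1, by which gut venules capture lymphocytes, and the IgG group received a control IgG antibody. Each group has 2 mice with 1 library per mouse, called MAdCAM1 1, MAdCAM1 2, IgG 1 and IgG 2. The labels as used here give no strain, sex, age, dose or time, and a tumour sample holds stroma and immune cells besides epithelium. The comparison asks how the tumours of antibody-treated mice differ from those of control mice.

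Expression was measured by CAGE, which counts sequence tags at the capped starts of RNA. Each tag stands for 1 RNA start whatever the length of the gene, so levels of different genes need no correction for length. They remain a rough guide, since 885 genes with at least 20 tags share all 4 values with another gene. Levels are given as CPM, tag counts normalised to the total of each library with scaling between libraries. The libraries held 14850923 to 16891234 tags. Log2 fold changes are MAdCAM1 over IgG. Adjusted p-values are from edgeR's quasi-likelihood test with Benjamini-Hochberg adjustment over the 14331 tested genes, and a gene counts as changed under an adjusted p of 0.05. The labels do not say how the mice were chosen or housed, so the p-values measure the spread between these 4 libraries alone.

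In the colon, absorptive surface cells take up salt by pairing sodium-proton exchange with chloride-bicarbonate exchange, while crypt cells secrete chloride that enters through a basolateral sodium-potassium-chloride cotransporter. Zinc enters cells through the ZIP carriers (Slc39) and leaves the cytosol through the ZnT carriers (Slc30). Iron is taken up by DMT1 (Slc11a2) and exported by ferroportin (Slc40a1), and copper enters through CTR1 (Slc31a1).

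More carrier genes were higher than lower in the MAdCAM1 tumours, most by a small margin and a few by a wide one, and none passed the quasi-likelihood test. Of the 60 genes, 58 had enough tags to be tested, and 40 of these had a positive log2 fold change (69%, against 49.8% of all tested genes; 33 of 58 without scaling factors). Their median log2 fold change was 0.11 (58 genes), against −0.0012 over all 14331 tested genes. No carrier gene passed the quasi-likelihood test in either direction (0 of 58), where 0% of all tested genes passed in either direction, and the smallest adjusted p among them was 0.640. At an unadjusted p under 0.05 in the quasi-likelihood test, 8 carrier genes were higher (13.8%, background 5.09%) and 0 lower (background 1.82%). Without scaling factors, 6 were higher and 2 lower at that threshold. Both MAdCAM1 libraries lay above both IgG libraries for 20 of the 58 genes (34.5%), against 19.7% of all tested genes, and below both for 6 (10.3%), against 18.7%. Without scaling factors these counts were 14 higher and 11 lower, and the median was 0.01 against −0.10 over all genes. The shares of all tested genes for these measures are with scaling factors, so they are no yardstick for counts without them. The median of the carrier genes lay 0.11 above that of all genes in both cases. A log2 fold change of at least 1 was found for 5 carrier genes upward (background 4.7%) and 0 downward (background 2.2%). Of the 58, 2 genes, Slc39a5 and Slc26a3, were called higher by edgeR's exact test (background 1.06% higher) and by DESeq2 (background 1.53% higher), and 0 were called lower by either tool (backgrounds 0.0628% and 0.14%). Limma-voom called 0.

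The libraries did not contribute equally. IgG 2 was the lowest library for 24 of the 58 genes and MAdCAM1 1 the highest for 22. Over all tested genes IgG 2 was lowest for 30.1% and MAdCAM1 1 highest for 24.4%. The 2 MAdCAM1 mice differed by a median of 1.22-fold per carrier gene and the 2 IgG mice by 1.26-fold, against 1.18-fold and 1.23-fold over all tested genes.

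**Figure D1:**
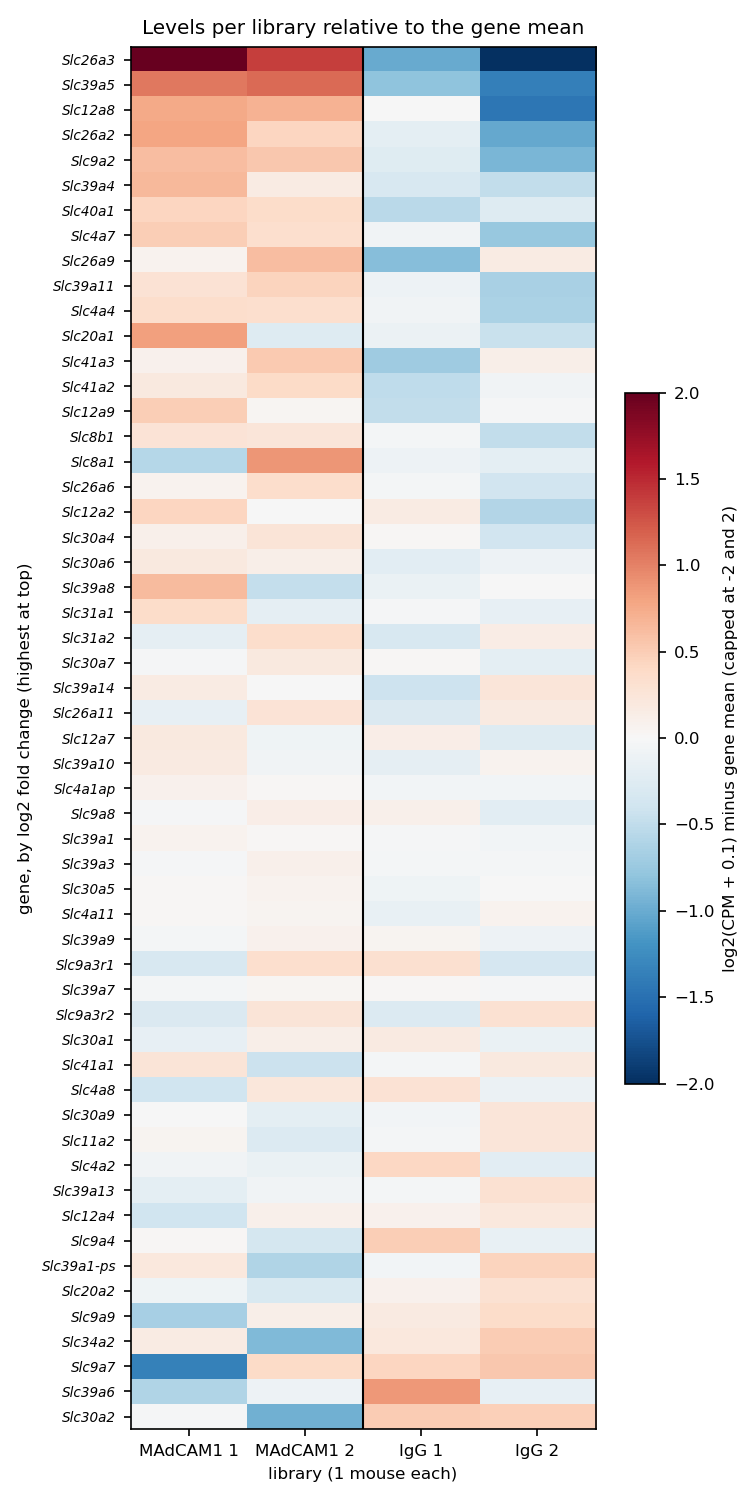
Heat map of 55 of the 58 tested carrier genes in the 4 libraries, with colour for log2(CPM + 0.1) minus the gene's mean over the libraries, capped at −2 and 2, and genes ordered by log2 fold change. The top rows, led by Slc26a3 and Slc39a5, are high in both MAdCAM1 libraries and lowest in IgG 2 or IgG 1, and rows in the middle have no common order.

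Markers of epithelial cells lay in the same direction as these genes. Over all tested genes, 19.7% were higher in both MAdCAM1 libraries and 18.7% lower in both. Of 9 colonocyte markers, 1 of which is Slc26a3 itself, 8 were higher in both MAdCAM1 libraries and 0 lower in both, with summed levels of 1635 and 1257 CPM in MAdCAM1 and 607 and 389.9 CPM in IgG. All 7 goblet cell markers were higher in both, at summed levels of 6049 and 3783 against 1265 and 479 CPM, and 5 of 6 general epithelial markers, at 8627 and 7361 against 5600 and 4908 CPM. Macrophage markers (5 of 8 listed genes in the table, 0 of them higher or lower in both) summed to 128 and 493 CPM in MAdCAM1 and to 142 and 484 CPM in IgG, and smooth muscle markers (5 of 6 in the table, 0 higher or lower in both) to 106 and 1877 against 1657 and 89.1 CPM. Of 6 tested neutrophil markers 3 were lower in both (Mmp8, Ngp and Camp, at no more than 9.34 CPM in any library). S100a8, S100a9 and Csf3r overlapped. The neutrophil list summed to 197 and 739 against 296 and 529.5 CPM, mostly from S100a8 and S100a9. Plasma and B cell markers (2 of 4 higher in both) summed to 45.4 and 523 against 18.6 and 38.5 CPM, with MAdCAM1 2 alone high. The part of these cell types in the carrier results was not tested. In bulk tissue, a change in the number of cells of a type and a change in the RNA per cell cannot be told apart.

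**Figure D2:**
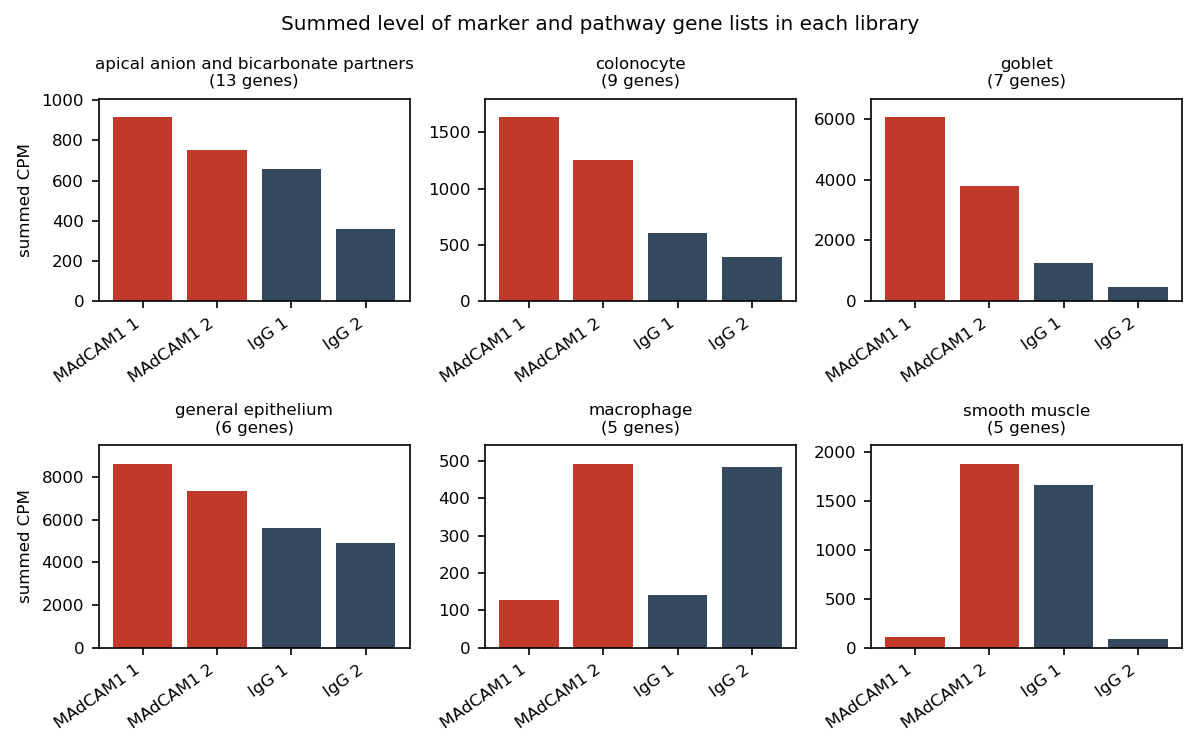
Summed CPM (vertical axes, from 0) of 6 marker and pathway gene lists in each library, with MAdCAM1 libraries in red and IgG libraries in dark blue. The colonocyte, goblet and epithelial sums are higher in both MAdCAM1 libraries, whereas the macrophage and smooth muscle sums are high in 1 library of each group.

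Anion exchangers of the Slc26 family held the largest fold change of the set. Slc26a3 (chromosome 12, 31440870 to 31523916, GRCm39), the chloride-bicarbonate exchanger of the colonic surface, stood at 22.8 and 10.9 CPM in MAdCAM1 and at 1.99 and 0.495 CPM in IgG, from 326 and 169 tags against 35 and 8. The lower MAdCAM1 value is well above the higher IgG value. The log2 fold change was 3.75 (SE 0.82, n = 2 per group), with an edgeR quasi-likelihood adjusted p of 0.665. The exact test gave an adjusted p of 0.0053 and DESeq2 0.00053; with 1 library left out, these ran from 0.00016 to 0.0863 and from 3.3e-06 to 0.303. Leaving out a library moved the log2 fold change between 3.07 (without IgG 2) and 5.05 (without IgG 1). Because CAGE tags mark the start of transcripts, the sequence before the start of the gene is shown, from the RefSeq promoter table and placed by exact match at chr12:31487968-31488247 on the plus strand of GRCm39, from 250 bases before the start to 30 after it. Capitals mark a TATAAA match 30 to 25 bases before the start.
Slc26a3: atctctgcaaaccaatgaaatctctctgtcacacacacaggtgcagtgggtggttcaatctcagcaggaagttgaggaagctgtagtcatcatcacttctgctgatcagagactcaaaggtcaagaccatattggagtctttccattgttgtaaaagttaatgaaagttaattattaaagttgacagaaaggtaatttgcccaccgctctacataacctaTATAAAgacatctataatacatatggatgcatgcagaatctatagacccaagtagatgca

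Slc26a2, a sulfate carrier needed for sulfation of mucins and proteoglycans, stood at 30.7 and 24.0 CPM in MAdCAM1 and 15.5 and 8.72 CPM in IgG. Its groups did not overlap (log2 fold change 1.17, SE 0.35, with an edgeR adjusted p of 0.691). The value ran from 0.81 without IgG 2 to 1.63 without IgG 1. Slc26a6, an apical exchanger of chloride, bicarbonate and oxalate, was low at 2.17 and 2.65 against 1.99 and 1.55 CPM and also did not overlap (log2 fold change 0.45, SE 0.40; 0.27 without IgG 2 and 0.29 without MAdCAM1 2). Slc26a9 and Slc26a11 overlapped, at 9 and 15 tags against 5 and 11, and at 33 and 49 tags against 37 and 48. The family summed to 58.7 and 41.8 CPM in MAdCAM1 and to 21.9 and 14.4 CPM in IgG. Its median log2 fold change of 0.73 is the value of Slc26a9 (SE 0.66), which overlapped and had few tags. The median was positive under every scaling tried.

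The genes that work beside these exchangers were more often higher than lower. Of 16 symbols listed for partners of anion and bicarbonate transport, 13 were tested. The list held Slc9a3r1 and Slc9a3r2 also under their other names, Nherf1 and Nherf2, so that only Pdzk1 was not analysed here. Of the 13, 7 were higher in both MAdCAM1 libraries and 0 lower in both, where all tested genes gave 19.7% and 18.7%. Their median log2 fold change was 1.01, against −0.0012 over all tested genes, and 0 passed the quasi-likelihood test. The exact test and DESeq2 each called 2 higher, Car4 and Best2, and 0 lower (backgrounds 1.06% and 1.53% higher). Car4 had the largest fold change (log2 4.79, SE 1.30), at 99.8 and 14.9 CPM in MAdCAM1 and 3.36 and 0.742 CPM in IgG. Car1 and Car4 are also among the colonocyte markers above. The chloride channel Cftr stood at 28.3 and 15.7 CPM in MAdCAM1 and 15.2 and 4.08 CPM in IgG. Gucy2c, the receptor of guanylin that controls fluid secretion, stood at 89.6 and 89.5 against 44.9 and 20.1 CPM. Best2, a bicarbonate channel of goblet cells, had 21.2 and 24.9 against 4.61 and 1.18 CPM. Car12, a membrane carbonic anhydrase, had the lowest fold change of the list (log2 −1.07, SE 1.28) at 7.84 and 15.9 CPM in MAdCAM1 and 46.8 and 2.97 CPM in IgG, where IgG 1 alone was high and the groups overlapped. The scaffold Slc9a3r1, a member of the carrier set by its symbol, overlapped at 79.8 and 126 against 124 and 79.3 CPM, as did Slc9a3r2 at 11.2 and 16.4 against 11.4 and 17.1 CPM.

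Sodium-proton exchangers of the Slc9 family did not share a direction. Of 9 tested Slc9 genes, scaffolds included, 1 was higher in both MAdCAM1 libraries and 2 lower (all tested genes, 19.7% and 18.7%). Slc9a2 (NHE2), an apical exchanger of intestinal epithelium, stood at 29.8 and 28.1 CPM in MAdCAM1 and 16.3 and 10.3 CPM in IgG. The 2 groups did not overlap (log2 fold change 1.12, SE 0.28, with an edgeR adjusted p of 0.677). The value ran from 0.82 without IgG 2 to 1.48 without IgG 1. Slc9a3 (NHE3), the main sodium absorber of the colon, was not analysed here.

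Both Slc9 genes that were lower in both MAdCAM1 libraries encode intracellular exchangers. Slc9a9 (NHE9), of endosomes, stood at 9.73 and 16.8 CPM in MAdCAM1 and 17.6 and 20.04 CPM in IgG, so that the groups did not overlap (log2 fold change −0.50, SE 0.33; edgeR adjusted p = 0.820). That value was −0.17 without MAdCAM1 1 and −0.95 without MAdCAM1 2. For Slc9a7 (NHE7), of the Golgi network, the values were 2.38 and 8.16 CPM in MAdCAM1 and 8.48 and 9.09 CPM in IgG. MAdCAM1 1 stood apart from the other 3 libraries, and without it the log2 fold change of −0.73 (SE 0.64) became −0.11, and without MAdCAM1 2 it was −1.88. Slc9a8, also of internal membranes, overlapped at 33.7 and 37.4 against 36.6 and 29.6 CPM. Slc9a4 had 28 to 59 tags per library and overlapped, and Slc9a5, with 2 and 2 tags in MAdCAM1 and 4 and 2 in IgG, was too low to test.

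Among the bicarbonate carriers of the Slc4 family, 2 sodium-bicarbonate cotransporters lay apart between the groups. Slc4a7 (NBCn1), which loads bicarbonate into epithelial and tumour cells, stood at 123 and 109.7 CPM in MAdCAM1 and 83.5 and 51.5 CPM in IgG (log2 fold change 0.79, SE 0.28; edgeR adjusted p = 0.715). Slc4a4 (NBCe1), a basolateral entry route for bicarbonate in crypt cells, stood at 13.3 and 13.1 against 9.90 and 6.62 CPM (log2 fold change 0.68, SE 0.29; edgeR adjusted p = 0.741). In both genes IgG 2 was the lowest library and the groups did not overlap; without IgG 2 the log2 fold changes were 0.47 for Slc4a7 and 0.41 for Slc4a4. Slc4a2, a chloride-bicarbonate exchanger of the basolateral membrane, overlapped at 64.0 and 61.4 against 89.8 and 57.95 CPM. Slc4a8 and Slc4a11 overlapped too. The adaptor Slc4a1ap had 18.6 and 17.8 against 16.96 and 16.95 CPM, a difference that lost its separation without scaling factors. The red cell exchanger Slc4a1 was not analysed here.

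Cation-chloride cotransporters of the Slc12 family included the most abundant carrier of the set. Slc12a2 (NKCC1), which loads chloride for secretion, stood at 325 and 239 CPM in MAdCAM1 and 269.9 and 160.1 CPM in IgG. The order was MAdCAM1 1, IgG 1, MAdCAM1 2 and IgG 2, so the groups overlapped (log2 fold change 0.39, SE 0.33; edgeR adjusted p = 0.857). Leaving out single libraries gave 0.056 without IgG 2, 0.15 without MAdCAM1 1, 0.60 without MAdCAM1 2 and 0.80 without IgG 1. The potassium-chloride cotransporters Slc12a4 and Slc12a7 had log2 fold changes of −0.28 and 0.10 and overlapped. Slc12a8, a family member that has been described in mouse intestine as a carrier of nicotinamide mononucleotide, stood at 10.9 and 10.4 CPM in MAdCAM1 and 6.32 and 2.29 CPM in IgG. The MAdCAM1 mice were close to each other and the IgG mice 2.76-fold apart (log2 fold change 1.30, SE 0.55; edgeR adjusted p = 0.742). Slc12a9 was higher in both at 5.25 and 3.82 against 2.62 and 3.65 CPM, a separation lost without scaling factors.

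The regulators and pumps that drive these cotransporters mostly overlapped. All 9 listed genes were tested. Both MAdCAM1 libraries were above both IgG libraries for 1 and below for 0, where all tested genes gave 19.7% and 18.7%. Log2 fold changes had a median of 0.20. The kinase Wnk1, which controls Slc12 activity, overlapped at 24.7 and 25.1 CPM in MAdCAM1 and 32.2 and 24.1 CPM in IgG. The member that did not overlap was Kcnn4, a basolateral potassium channel, at 43.8 and 45.2 CPM in MAdCAM1 and 37.0 and 14.7 CPM in IgG.

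**Figure D3:**
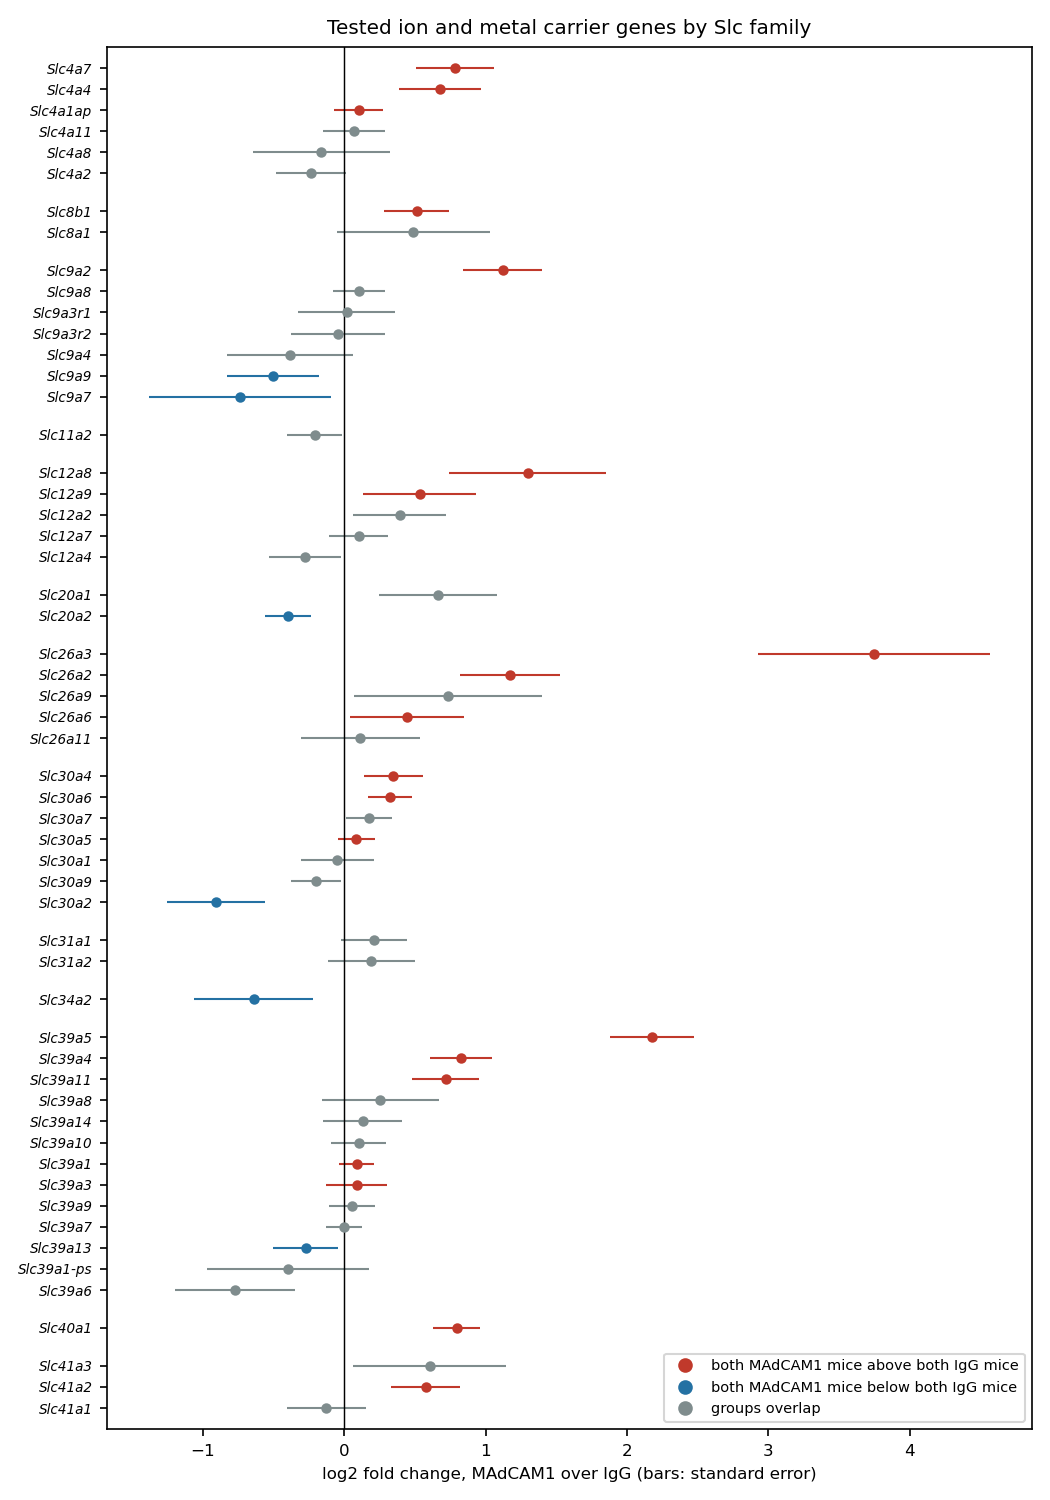
Log2 fold change (MAdCAM1 over IgG, horizontal axis) of 55 of the 58 tested carrier genes grouped by family, with bars for the standard error of 1 fit to 2 mice per group. Red genes are higher in both MAdCAM1 mice, blue genes lower in both, and grey genes overlap. Slc26a3 at 3.75 and Slc39a5 at 2.18 lie far right of the others, and the lowest value is that of Slc30a2 at −0.91.

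Phosphate carriers did not share a direction. The widely expressed uptake carriers Slc20a1 and Slc20a2 stood at 41.2 and 19.4 against 21.3 and 17.01 CPM, and at 59.2 and 50.9 against 67.0 and 78.1 CPM. MAdCAM1 1 alone was high for Slc20a1 (log2 fold change 0.66, SE 0.42; 0.019 without MAdCAM1 1 and 1.11 without MAdCAM1 2), whereas both MAdCAM1 libraries were lower for Slc20a2 (log2 fold change −0.40, SE 0.16; edgeR adjusted p = 0.731). Slc34a2 (chromosome 5, 53195423 to 53229006), the regulated apical phosphate carrier of intestine and lung, stood at 15.3 and 7.32 CPM in MAdCAM1 and 15.8 and 19.5 CPM in IgG. MAdCAM1 1 lay just under IgG 1, and without MAdCAM1 2 the log2 fold change of −0.64 (SE 0.42) became −0.20, and without MAdCAM1 1 it was −1.27. Of 5 listed genes of phosphate handling, 3 were tested. Of these, 1 (the vitamin D receptor Vdr) was higher in both and 0 were lower (all tested genes, 19.7% and 18.7%). Vdr stood at 35.9 and 42.6 against 22.6 and 5.75 CPM.

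Zinc importers of the Slc39 (ZIP) family held the second largest fold change. Slc39a5 (ZIP5, chromosome 10, 128231799 to 128237121), a zinc importer of the basolateral side of enterocytes and pancreatic acinar cells, stood at 17.996 and 19.1 CPM in MAdCAM1 and 4.89 and 3.28 CPM in IgG, from 257 and 295 tags against 86 and 53. The MAdCAM1 mice were close to each other and both lay more than 3 times above either IgG mouse. Its log2 fold change of 2.18 (SE 0.30) is 4.53-fold, with an edgeR quasi-likelihood adjusted p of 0.640, an exact test adjusted p of 0.00067 and a DESeq2 adjusted p of 4.2e-05. With 1 library left out, the exact test gave 0.00266 to 0.145 and DESeq2 0.00132 to 0.287. Its promoter from the same table lies at chr10:128237092-128237343 on the minus strand of GRCm39. It is shown as the start of the other gene called by those tools, with capitals for a match to TGCACNC, a core of the metal response element bound by the zinc sensor MTF1, on the opposite strand at 129 to 123 bases before the RefSeq start.
Slc39a5: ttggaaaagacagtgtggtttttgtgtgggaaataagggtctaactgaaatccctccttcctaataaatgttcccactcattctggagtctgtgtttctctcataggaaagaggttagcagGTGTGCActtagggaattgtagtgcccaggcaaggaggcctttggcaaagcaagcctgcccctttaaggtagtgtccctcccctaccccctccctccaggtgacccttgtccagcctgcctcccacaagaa

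Slc39a4 (ZIP4), the apical importer of dietary zinc whose loss causes acrodermatitis enteropathica, was the most abundant ZIP at 251 and 181 CPM in MAdCAM1 and 129 and 114 CPM in IgG. Its groups did not overlap (log2 fold change 0.83, SE 0.22, with an edgeR adjusted p of 0.691). The value ran from 0.57 without MAdCAM1 1 to 1.05 without MAdCAM1 2. Slc39a11 (ZIP11), a zinc carrier of internal membranes, followed at 49.2 and 55.2 against 37.6 and 25.8 CPM (log2 fold change 0.72, SE 0.24; 0.47 without IgG 2). Slc39a6 (ZIP6) had the lowest value of the family, at 15.1 and 21.4 against 41.8 and 20.5 CPM, where IgG 1 alone was high and the groups overlapped (log2 fold change −0.77, SE 0.43; edgeR adjusted p = 0.773). Without IgG 1 its value was −0.18, and without IgG 2 −1.20. For Slc39a13, an importer of internal membranes, both MAdCAM1 libraries were below both IgG libraries at 11.3 and 12.4 against 12.6 and 16.02 CPM (log2 fold change −0.27, SE 0.23; −0.10 without IgG 2 and −0.45 without IgG 1).

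The remaining ZIP genes had smaller fold changes, from −0.40 for the pseudogene Slc39a1-ps to 0.26 for Slc39a8 on the log2 scale. Slc39a1 was higher in both at 99.4 and 96.2 against 92.9 and 91.04 CPM and Slc39a3 at 10.6 and 11.7 against 10.5 and 10.5 CPM, but without scaling factors both overlapped and their log2 fold changes of 0.09 and 0.09 turned negative. Slc39a8 and Slc39a14, which also carry manganese and iron, overlapped at 42.9 and 19.7 against 25.04 and 27.3 CPM and at 26.8 and 23.7 against 17.9 and 28.3 CPM. Slc39a7, of the endoplasmic reticulum, overlapped with a log2 fold change of −0.0016; its tags are identical to those listed for Gm20427. Slc39a9, Slc39a10 and the pseudogene Slc39a1-ps overlapped, and the last, with 8 to 19 tags per library, may share tags with Slc39a1. Over the family, 5 of 13 genes were higher in both and 1 lower in both (all tested genes, 19.7% and 18.7%), and without scaling factors 3 were higher and 3 lower. The family median of 0.09 on the log2 scale became −0.0093 without scaling factors.

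Of 7 zinc exporters of the Slc30 (ZnT) family, 3 were higher and 1 lower in both MAdCAM1 libraries (all tested genes, 19.7% and 18.7%), and 1 higher and 2 lower without scaling factors. Slc30a2 (ZnT2), which loads zinc into secretory vesicles of mammary gland, pancreas and Paneth cells, stood at 84.2 and 43.6 CPM in MAdCAM1 and 121 and 119 CPM in IgG. The IgG mice were nearly equal and both MAdCAM1 mice were lower, MAdCAM1 2 the most (log2 fold change −0.91, SE 0.35; edgeR adjusted p = 0.731). The value ran from −0.51 without MAdCAM1 2 to −1.46 without MAdCAM1 1. Slc30a4 and Slc30a6, both of internal vesicles, were higher in both at 32.8 and 36.7 against 31.2 and 23.4 CPM and at 30.2 and 28.6 against 22.6 and 24.4 CPM, and without scaling factors Slc30a4 overlapped. The log2 fold change of Slc30a4 was 0.35, with 0.15 without IgG 2 and 0.56 without IgG 1. Slc30a5 was higher in both by a log2 fold change of 0.08, which became −0.01 without scaling factors. Slc30a1 (ZnT1), the exporter of the cell surface that is induced by zinc, overlapped at 9.52 and 11.7 against 12.1 and 9.77 CPM, as did Slc30a7 and Slc30a9.

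Other genes of zinc and copper handling were separated about as often as genes in general. Of 10 listed, 9 were tested, 1 was higher in both MAdCAM1 libraries and 2 lower (all tested genes, 19.7% and 18.7%), and log2 fold changes had a median of −0.07. Mtf1, the zinc sensor, stood at 34.0 and 34.4 CPM in MAdCAM1 and 24.8 and 24.7 CPM in IgG (log2 fold change 0.47, SE 0.15; edgeR adjusted p = 0.691). Its target Mt1, a metallothionein that binds zinc, did not overlap at 317 and 177 CPM in MAdCAM1 and 347 and 349 CPM in IgG, whereas Mt2 overlapped at 260.1 and 104 against 296 and 235 CPM. The copper importer Slc31a1 (CTR1), the second most abundant carrier of the set, overlapped at 234 and 159.7 against 178 and 162 CPM, and so did Slc31a2 at 11.3 and 16.3 against 10.1 and 14.04 CPM.

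The iron exporter lay apart between the groups and the main iron importer overlapped. Slc40a1 (ferroportin, chromosome 1, 45947211 to 45965683), the exporter of enterocytes and of macrophages that recycle iron, stood at 55.5 and 53.5 CPM in MAdCAM1 and 28.5 and 34.4 CPM in IgG. The values within each group were close (log2 fold change 0.80, SE 0.17, which is 1.74-fold, with an edgeR adjusted p of 0.665). The log2 fold change ran from 0.65 without IgG 1 to 0.93 without IgG 2. Heph, the ferroxidase that works with ferroportin in enterocytes, stood at 25.1 and 32.6 CPM in MAdCAM1 and 16.6 and 8.47 CPM in IgG (log2 fold change 1.20, SE 0.39; edgeR adjusted p = 0.691). Slc11a2 (DMT1), the importer of ferrous iron, overlapped at 59.9 and 47.7 against 56.1 and 68.3 CPM, and without scaling factors lay lower in both. Slc11a1 (NRAMP1), a carrier of phagosomes in macrophages and neutrophils, had 2 and 2 tags in MAdCAM1 and 4 and 7 in IgG and was too low to test. Of 13 listed iron genes 11 were tested, and 0 passed the quasi-likelihood test. Of these, 3 were higher in both and 1, Ftl1, lower in both, against 19.7% and 18.7% of all tested genes. Heph had the largest fold change of the list, whose median log2 fold change was −0.016. Fth1, a ferritin gene, overlapped at 3578 and 3824 CPM in MAdCAM1 and 3175 and 6509 CPM in IgG. Tfrc, the transferrin receptor, overlapped at 170.4 and 187 against 189 and 133 CPM.

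Of 3 magnesium carriers (Slc41) and 2 calcium carriers (Slc8), 1 of each was higher in both MAdCAM1 libraries and 0 were lower. Over all tested genes these shares were 19.7% and 18.7%. Slc41a2, a magnesium carrier, was higher in both at 16.9 and 19.3 against 10.3 and 13.98 CPM (log2 fold change 0.58, SE 0.24; edgeR adjusted p = 0.741), while Slc41a1 and Slc41a3 overlapped. Slc8b1 (NCLX), the sodium-calcium exchanger of mitochondria, was higher in both at 20.03 and 19.6 against 16.05 and 11.8 CPM (log2 fold change 0.51, SE 0.23; edgeR adjusted p = 0.759), with 0.30 without IgG 2. Slc8a1 (NCX1), the exchanger of the plasma membrane in muscle and other cells, overlapped at 6.23 and 17.1 against 8.59 and 8.04 CPM. MAdCAM1 2 alone was high.

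**Figure D4:**
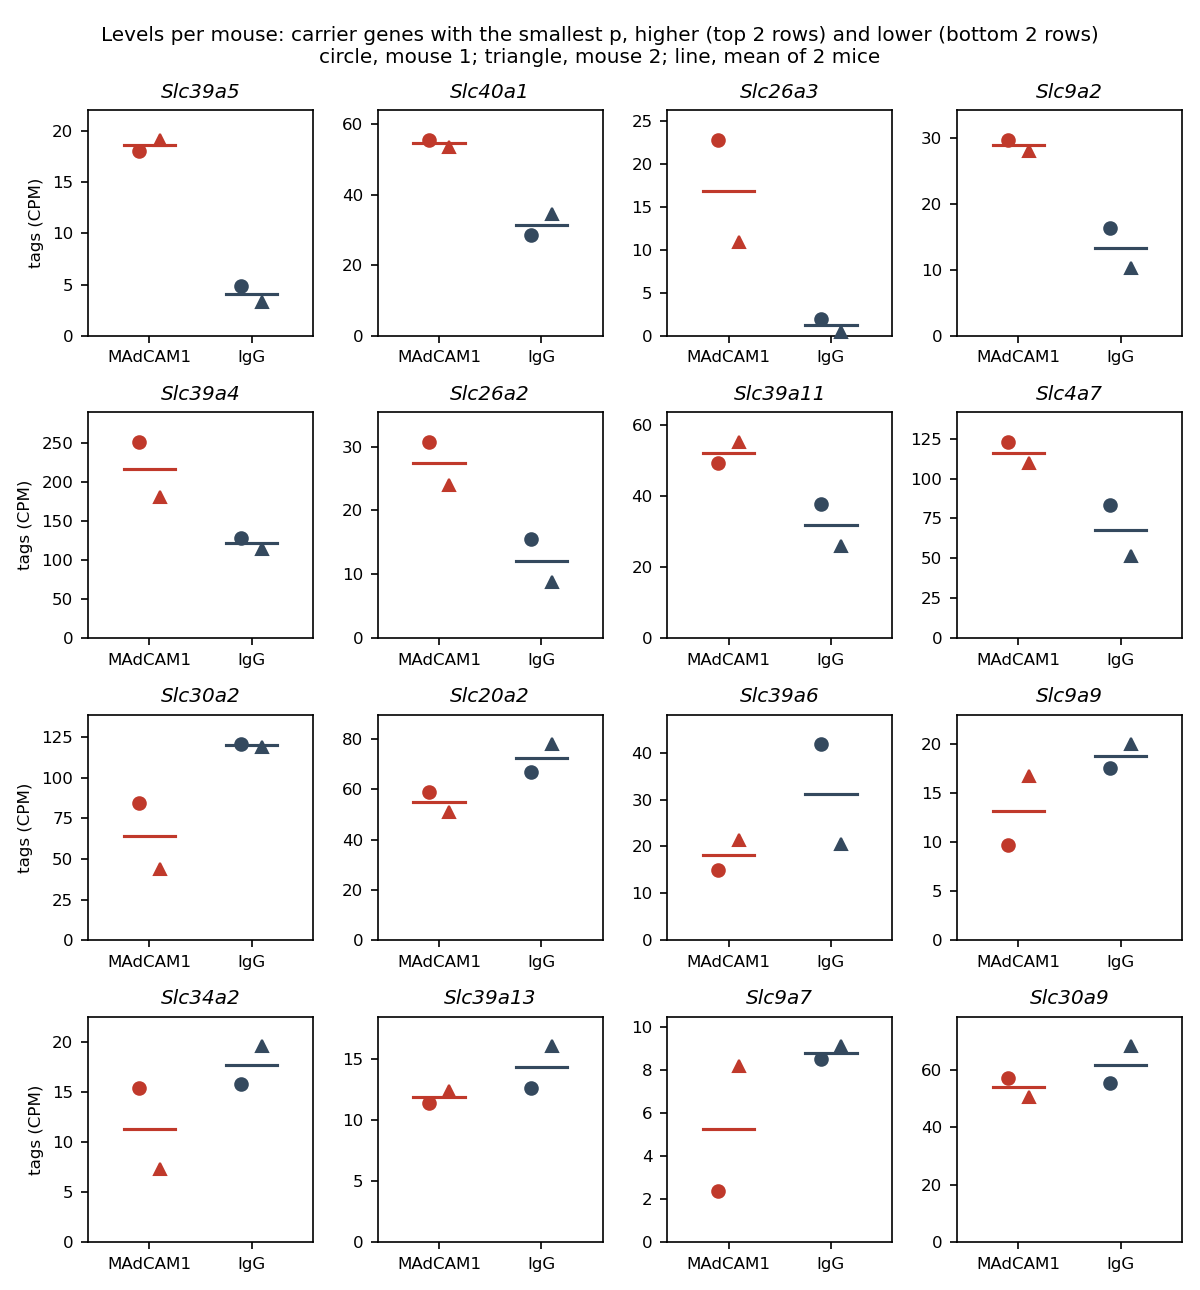
CPM in each mouse (vertical axes, from 0) of 8 carrier genes on the positive side (top 2 rows) and 8 on the negative side (bottom 2 rows), each ranked by p, with circles for mouse 1, triangles for mouse 2 and lines for the mean. All 8 higher genes are separated between the groups, and of the lower ones Slc39a6 and Slc30a9 overlap.

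The promoters of the carrier genes were also searched for short motifs in windows from 250 bases before to 30 after the start, on both strands, for 43 genes with 54 entries in the RefSeq table (GRCm38.p6). TGCACNC or TGCGCNC, both cores of the metal response element, was found in 23 of 54 carrier windows (42.6%) and in 24.1% of all 32851 windows. Carrier windows were richer in G and C, at a median of 61.2% against 52.5%. TTTATNG, a match to CDX factors, was in 3 carrier windows (5.56%, against 10.5% of all) and TATAAA in 5 (9.26%, against 13.1%), and these motifs can overlap each other on opposite strands. The remaining promoters chosen by the same rule are shown so that genes on either side can be compared. Slc39a11 lies at chr11:113456624-113456891 on the minus strand, Slc9a9 at chr9:94551695-94551974 and Slc34a2 at chr5:53206445-53206723 on the plus strand of GRCm39. Slc39a11 held TGCACNC on the opposite strand at 140 to 134 bases before its start. Slc34a2 held TGCGCNC on the opposite strand at 206 to 200 bases before its start and on its own strand at 8 to 2, and Slc9a9 held none of the motifs. Capitals mark these matches, and a match describes letters, not a bound site.
Slc39a11: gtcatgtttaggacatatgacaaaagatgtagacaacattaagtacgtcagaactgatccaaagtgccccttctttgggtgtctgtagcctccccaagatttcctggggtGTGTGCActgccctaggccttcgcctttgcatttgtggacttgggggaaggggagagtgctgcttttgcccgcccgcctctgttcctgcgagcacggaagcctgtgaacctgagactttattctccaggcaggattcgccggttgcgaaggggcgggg
Slc9a9: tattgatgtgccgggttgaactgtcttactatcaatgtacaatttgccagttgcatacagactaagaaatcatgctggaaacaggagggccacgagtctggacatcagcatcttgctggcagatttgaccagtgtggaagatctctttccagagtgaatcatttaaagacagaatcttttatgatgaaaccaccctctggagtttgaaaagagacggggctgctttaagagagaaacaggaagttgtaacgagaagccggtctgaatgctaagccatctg
Slc34a2: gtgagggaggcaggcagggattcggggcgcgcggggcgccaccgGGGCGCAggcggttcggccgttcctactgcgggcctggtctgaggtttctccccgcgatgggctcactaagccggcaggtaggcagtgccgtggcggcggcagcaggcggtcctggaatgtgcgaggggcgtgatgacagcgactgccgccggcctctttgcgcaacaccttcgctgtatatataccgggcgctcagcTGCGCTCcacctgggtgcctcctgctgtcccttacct

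In levels, the set ran over a wide range. Of the 60 genes, 4 averaged at least 100 CPM over the 4 libraries (Slc12a2, Slc31a1, Slc39a4 and Slc9a3r1), 42 lay between 10 and 100, 10 between 1 and 10, and 4 under 1 CPM. Among the 8 higher genes with the lowest p, mean levels over the 4 libraries ran from 9.06 CPM for Slc26a3 to 169 CPM for Slc39a4. By group, Slc39a5 and Slc26a3 stood at means of 18.5 and 16.9 CPM in MAdCAM1, against 4.09 and 1.24 CPM in IgG, and Slc39a4 at 216 against 122 CPM.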

How the data were processed

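Per the labels' protocols, RNA with an integrity number above 7 from tumours was cap-trapped into CAGE libraries, and 75 nt were read from 1 end. Reads were placed on GRCm39 by BWA 0.7.17, and those left over by HISAT2 2.0.5. RECLU clusters under 0.1 CPM, over 200 bp or at a discovery rate (IDR) of 0.1 or above were dropped, and bedtools 2.12.0 kept regions overlapping by 90% between replicates, which can remove genes that vary between mice. The step from clusters to genes is not given in the sources used here. The authors deposited raw counts of tags for each gene.

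Here, counts were filtered (14331 of 14979 genes kept), scaled by TMM (factors 0.962, 0.972, 1.04 and 1.03 for MAdCAM1 1, MAdCAM1 2, IgG 1 and IgG 2) and compared over the whole table by edgeR 4.0.16 (R 4.3.3) with the quasi-likelihood test. An SE is the log2 fold change's size over the square root of F. Alternatives were other scalings and filters, DESeq2 1.42.0, edgeR's exact test, limma-voom (3.58.1), a replicate block and leaving out each library. The code was tested on simulated data.

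The carrier genes and lists were chosen with earlier results of these data known. The rule named the 8 smallest p-values in each direction, the 6 highest mean CPM, genes with a textbook role and untested members. Other carriers given values were named after these were seen. Promoters follow the rule of 3 genes per direction with a RefSeq entry (table build GRCm38.p6, placed on GRCm39 by exact match) outside chromosome 18. Slc30a2 is not shown, since its RefSeq start lies 543 bases from the GENCODE M39 start. A few genes counted in the totals are not reported here by name or drawn in the figures.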

Additional observations from a re-analysis of the deposited data

How the results depend on the processing

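Under RLE, upper quartile or library size scaling, either filter, limma-voom and a replicate block, 0 genes and 0 carrier genes were called in either direction, as in the quasi-likelihood test with all 4 libraries. Leaving out a library also gave 0 calls, but there 1 group has a single library that is assumed to vary like the other group, so these counts say nothing on stability. DESeq2 called 219 genes higher and 20 lower, and the exact test 152 and 9, with 2 carrier genes higher in each. For these tools too, leaving out a library leaves 1 group with a single library. Their calls over all genes also rose or fell with the library left out. Changes in the carrier counts that follow therefore cannot be read as specific to carriers. With libraries left out (chosen after the data were seen), the exact test called 0 to 3 carrier genes higher and 0 lower, and DESeq2 called 0 to 5 higher and 0 to 1 lower. Without IgG 2, the exact test called 0 carrier genes, with adjusted p-values of 0.145 for Slc39a5 and 0.0834 for Slc26a3. Without IgG 1, it called 3 and DESeq2 5. Without MAdCAM1 1, DESeq2 called 1 gene, Slc30a2, as lower.

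The median log2 fold change of the carrier genes, 0.11, ranged from 0.12 to 0.15 with libraries left out, was 0.013 with library size scaling (0.11 above the median of all genes in both cases), and 0.15 over the 54 tested carriers without the adaptor, scaffolds and pseudogene (chosen after the data were seen). Library size scaling put 11 carrier genes lower in both, against 6, and 14 higher in both, against 20. The shares of all tested genes under that scaling are not given here. Library size scaling also turned the log2 fold changes of Slc9a3r1 (−0.080) and Slc39a1 (−0.0093).

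Among the carrier genes named by the rule, leaving out a library turned the sign of some log2 fold changes. The largest of these with all 4 libraries was 0.49, for Slc8a1. Carrier genes outside the rule were not followed in these fits. The ranges were −0.092 to 0.46 for Slc31a1, −0.085 to 0.30 for Slc12a7, −0.20 to 0.10 for Slc30a1, −0.41 to 0.71 for Slc39a8, −0.35 to 0.37 for Slc9a3r1, −0.51 to 0.18 for Slc41a1, −0.42 to 1.04 for Slc8a1 and −0.18 to 0.49 for Slc39a14. Replicate numbers belong to different mice. The correlation of same-numbered deviations was −0.16 over genes, and with the replicate block the carrier median was 0.11 with 0 calls.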
